A study of Saccharomyces cerevisiae with 6 samples.

Results

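A set of 10 genes of the yeast cell wall, CCW12, CCW14, CWP1, CWP2, SED1, TIP1, PIR1, PIR3, HSP150 and CIS3, was followed in a search for double-stranded RNA (dsRNA). They were chosen by name as protein-coding features that encode covalently bound wall mannoproteins, and all 10 were found among 6316 protein-coding features and 15753 features in all. Total RNA of wild type Saccharomyces cerevisiae S288C, grown at 25 °C with no further treatment, was incubated with J2, a monoclonal antibody that recognizes dsRNA, and the co-immunoprecipitated RNA was sequenced (RIP-seq). The J2 eluate (3 libraries) holds what the beads of the initial precipitation had bound. The J2 unbound fraction (3 libraries) is the supernatant that remained after J2 had been applied again. The first precipitation began with 90 µg RNA and 3 µg antibody, kept together for 120 min at 4 °C before a further 120 min on beads, and its supernatant was then given 3 µg antibody and fresh beads. Coordinates are those of the deposited features on the sacCer3 build. Values are normalised counts, that is reads per feature divided by 1 size factor per library. The comparison asks which transcripts of growing cells are part of a double strand.

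The wall of budding yeast is a net of glucan and chitin coated with heavily mannosylated proteins. Most coat proteins are first held at the plasma membrane by a glycosylphosphatidylinositol (GPI) anchor, are cut from it and are then joined to wall glucan through what is left of the anchor. CCW12, CCW14, CWP1, CWP2, SED1 and TIP1 encode proteins of this kind. PIR1, PIR3, HSP150 and CIS3 encode proteins with internal repeats (PIR), which lack a GPI anchor and are linked to glucan through glutamine residues of the repeats. RNA can pair with RNA transcribed from the other strand of its own locus, so the RNAs opposite the 10 genes were followed as well.

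The PIR genes are shown by a 24-base stretch of their repeats that is similar, but not identical, in all 4. In PIR1, PIR3 and HSP150 no other 24-base sequence recurs more often, and for CIS3 the stretch nearest to that of HSP150 was taken. The 24-base unit was read from the coding sequences of the RefSeq genome of S288C (R64, the sequence of sacCer3), and capitals mark the 18 letters shared by all 4 genes.
PIR1: AAATtggTGAcGGTCAAaTcCAAG
PIR3: AAATaacTGAcGGTCAAgTtCAAG
HSP150: AAATcggTGAtGGTCAAgTtCAAG
CIS3: AAATtggTGAcGGTCAAgTcCAAG
With up to 4 mismatches the unit occurs 7 times in PIR1, 4 times in PIR3, 10 times in HSP150 and 1 time in CIS3. PIR1 and PIR3, neighbours on chromosome XI, share 121 sequences of 24 bases, CIS3 and HSP150 share 42, HSP150 and PIR1 share 3 and CIS3 and PIR1 share 2. Whether these shared sequences lie in the repeats was not examined. No pair of GPI-linked genes shares a sequence of that length. Of all 50-base windows of a gene, the share found once in the genome was 93.9% for PIR3, 95.4% for HSP150, 96.1% for PIR1, 98.7% for CIS3, 97.0% for SED1 and 100% for the other 5 genes. Windows that recur within their own gene also count as not unique. The part of the PIR counts that could come from a related locus was thus not measured.

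HSP150 and CIS3 are also neighbours, on chromosome X, and they run toward each other. Their longest annotated transcripts overlap by 37 bases. The 30 bases at chrX:121964-121993 (R64) lie inside that overlap and are shown on both strands because the 2 mRNAs are complementary there.
HSP150, plus strand: atcattatctaataatcttataaaatgtta
CIS3, minus strand: taacattttataagattattagataatgat
The counted features extend 200 bases past the end of many transcripts, and with these extensions the HSP150 and CIS3 features overlap by 437 bases. Complementary stretches within a single mRNA were short. The longest stretch that recurred as its own reverse complement in the same transcript had 8 to 12 bases in the 10 genes (median 9.5), against a median of 10 in 5703 nuclear mRNAs. The longest was in PIR3, where CATAAAACAAGT at base 54 of the transcript faces ACTTGTTTTATG at base 1136. The GC content of the 10 transcripts had a median of 41.3%, against 38.5% for nuclear mRNAs, and their median length was 1021 bases, against 1441.

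The 6 libraries held between 18645818 and 43141091 counts over all features. A total of 3 counts, taken as the detection floor, corresponded to a normalised count of 1.47 in eluate 1 and of up to 5.31 in unbound 2, far below every value of the 10 genes. The test was limma on log2(normalised count + 1), J2 eluate over J2 unbound. P-values were adjusted by Benjamini-Hochberg across the 15753 features, and the test was read for the 10188 features with a mean normalised count above 40. All 10 genes passed that minimum. A feature with an adjusted p under 0.05 is called reduced or enriched in the eluate, and log2 fold changes are given on this scale with their standard error (SE), and those of scarce RNAs are understated by the added 1. The labels do not say whether the libraries come from separate cultures, while the study describes its samples as biologically independent.

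With the deposited size factors, 9 of the 10 mRNAs were reduced in the J2 eluate, none was enriched and TIP1 was not called. With the total count per library 4 were reduced and 1 (TIP1) was enriched, where 48.8% of all mRNAs were reduced and 21.5% were enriched. The background with the deposited factors is high. Of all 10188 features 48.0% were reduced and 34.6% were enriched, and of the 5724 mRNAs among them 74.4% were reduced and 8.0% were enriched, so 9 of 10 is close to what mRNAs did in general. The median log2 fold change of the 10 genes was -1.55, compared to a median of -1.39 for all mRNAs and -0.46 for all features. It was -1.55, -1.56 and -1.36 when eluate 1, 2 or 3 was set against the unbound library of its number. The medians of all mRNAs in these pairs were -1.28, -1.42 and -1.44. The 10 genes thus stood lower in pairs 1 and 2 and higher in pair 3. The 10 genes differed among themselves far more than their median differed from that of all mRNAs, with fold changes from -2.73 (CIS3) to -0.24 (TIP1). The eluates and the unbound libraries did not overlap in 7 of the 10 genes, against 84.6% of all features. Among the 6 GPI-linked genes 5 were reduced (median -1.55), and among the 4 PIR genes 4 were reduced (median -1.46).

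**Figure D1:**
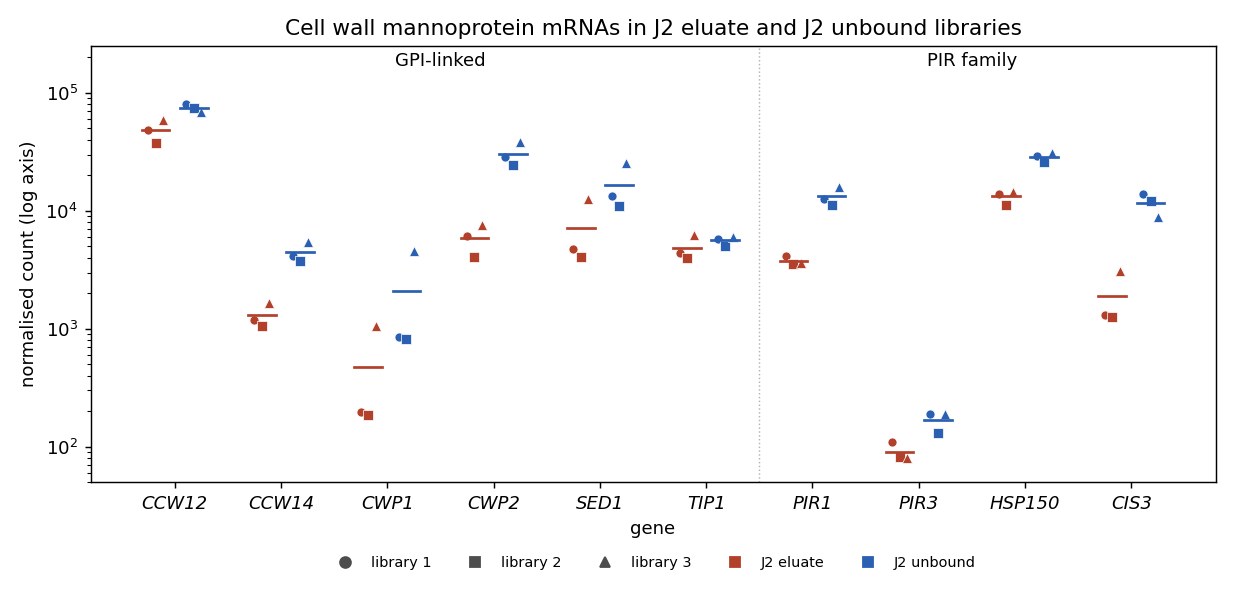
Normalised counts on a log axis of the 10 wall mRNAs in each library, J2 eluate (red) left of J2 unbound (blue) for each gene, with the library number as the symbol and the group mean (n = 3) as a bar. CWP2, CCW14, PIR1 and CIS3 show separate groups, TIP1 shows overlapping groups, and in CWP1 library 3 lies far above libraries 1 and 2 in both fractions.

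Per kilobase of feature, the genes span most of the range of mRNA levels. Among 6291 nuclear mRNAs ordered by their mean unbound level per kb, CCW12 stood at position 25, CWP2 at 62, HSP150 at 201, SED1 at 277, CIS3 at 308, PIR1 at 385, TIP1 at 506, CCW14 at 698 and CWP1 at 1215. PIR3 stood at position 5370 and is not an abundant mRNA in these cells. In the eluates CCW12 stood at position 16, CWP2 at 103, HSP150 at 121, TIP1 at 194, SED1 at 195, PIR1 at 453, CIS3 at 636, CCW14 at 897, CWP1 at 2104 and PIR3 at 5482. CCW12, HSP150, SED1 and TIP1 thus stood higher in the eluate order, and the other 6 genes stood lower. These positions carry no test.

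CCW12 (YLR110C, chromosome XII, 369348 to 370156, minus strand) encodes a small mannoprotein that is among the most abundant of the wall. Its normalised counts were 48215.5, 37309 and 59277 in eluates 1, 2 and 3, against 80521, 73919.9 and 69239 in unbound 1, 2 and 3. All 3 eluates lay below all 3 unbound libraries, but eluate 3 came close to unbound 3. In limma with Benjamini-Hochberg adjustment it was reduced, at a log2 fold change of -0.65 (SE 0.259, adjusted p = 0.0435), with -0.74, -0.99 and -0.22 in the pairs 1, 2 and 3. The call was not made with TMM factors (adjusted p = 0.0898) or without any 1 of eluate 2, unbound 1, unbound 2 and unbound 3 (adjusted p between 0.091 and 0.148). The value was 0.27 with the total count and not called, and with factors from mRNAs only the mRNA was enriched (0.67, adjusted p = 0.0141).

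CWP2 (YKL096W-A, chromosome XI, 259147 to 259903, plus strand) and CWP1 (YKL096W, chromosome XI, 261075 to 262110, plus strand), which encode major GPI-linked wall proteins, lie next to each other on the same strand. CWP2 had 6136, 4097 and 7584 normalised counts in the eluates, against 28393, 24665 and 38458 in the unbound libraries. The groups were clearly apart, and limma gave a log2 fold change of -2.38 (SE 0.267, adjusted p = 2.68e-05), the lowest but for CIS3. CWP1 had 197, 185 and 1051 in the eluates, against 859, 815 and 4601 in the unbound libraries. Here library 3 was high in both fractions, so that eluate 3 exceeded unbound 1 and 2 and the groups overlapped.

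Within the pairs, however, CWP1 hardly varied. Its log2 fold change was -2.12, -2.13 and -2.13 in the pairs 1, 2 and 3 (SD 0.00682), while the fit over the groups gave -2.13 with an SE of 0.758 (limma adjusted p = 0.0278). Limma with the library number as a block called CWP1 reduced (SE 0.149, adjusted p = 8.16e-07). The DESeq2 Wald test, which had no block, did not call it (adjusted p = 0.0716). Neither did limma with no block and without eluate 1 (0.107), eluate 2 (0.112) or unbound 3 (0.112). CWP1 was also not called with the total count (-1.21, adjusted p = 0.191 by limma) or with factors from mRNAs only (-0.81, adjusted p = 0.344). Set against CWP2 within a library, CWP1 reached 2.35%, 3.31% and 10.1% of the CWP2 level per kb in eluates 1, 2 and 3, against 2.21%, 2.41% and 8.74% in unbound 1, 2 and 3. The high level in library 3 was thus larger for CWP1 than for CWP2 in both fractions, and this shared level sets the spread of the unpaired comparison (log2 change 0.25, exact two-sided permutation p = 0.6). Within the pairs the ratio was higher in the eluate in 3 of 3, by 0.09, 0.45 and 0.21 on the log2 scale (exact paired two-sided permutation p = 0.25, the smallest possible).

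SED1 (YDR077W, chromosome IV, 600751 to 602335, plus strand) encodes a wall glycoprotein known for its part in stationary phase and stress. It had 4770.3, 4031 and 12694 normalised counts in the eluates, against 13284, 11094.5 and 25444 in the unbound libraries. Library 3 again stood high in both fractions, and the groups overlapped because eluate 3 exceeded unbound 2. SED1 was reduced by limma, at -1.31 on the log2 scale (SE 0.437, adjusted p = 0.0205), with -1.48, -1.46 and -1.0 in the pairs, and the call was lost without eluate 1 (0.0758), eluate 2 (0.086) or unbound 3 (0.0895). Limma with the library number as a block called SED1 reduced as well (SE 0.18, adjusted p = 8.96e-05). The log2 fold change of SED1 was -0.40 with the total count and 0.0022 with factors from mRNAs only, neither of them called.

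CCW14 (YLR390W-A, chromosome XII, 903655 to 904855, plus strand) encodes a glycoprotein of the inner wall layer. It had 1191, 1062 and 1645 normalised counts in the eluates, against 4172, 3720 and 5454 in the unbound libraries. Its groups were apart and its pairs were alike, at -1.81, -1.81 and -1.73. CCW14 was reduced, at -1.78 on the log2 scale (SE 0.217, adjusted p = 4.62e-05 by limma).

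TIP1 (YBR067C, chromosome II, 371758 to 372826, minus strand) encodes a GPI-linked protein whose mRNA is known to be induced by temperature shock. It had 4350.03, 3959 and 6244 normalised counts in the eluates, against 5825, 5011 and 6010.4 in the unbound libraries. The groups overlapped, and eluate 3 was the highest of all 6 libraries. Its log2 fold change of -0.24 (SE 0.206, adjusted p = 0.32 by limma) was the nearest to 0 of the 10, and 81.5% of the nuclear mRNAs had a lower one. Without eluate 3 the value was -0.43 and was called reduced (adjusted p = 0.036), whereas TIP1 was enriched with the total count (0.68, adjusted p = 0.0165) and with factors from mRNAs only (1.08, adjusted p = 0.000392).

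HSP150 (YJL159W, chromosome X, 120250 to 122196, plus strand) encodes a secreted PIR protein induced by heat and is the most abundant PIR mRNA here. It had 14006, 11181 and 14555 normalised counts in the eluates, against 28883, 25957 and 31212 in the unbound libraries. Groups were apart and pairs were alike, at -1.04, -1.21 and -1.10. HSP150 was reduced, at -1.12 on the log2 scale (SE 0.202, adjusted p = 0.00067 by limma), but was not called with the total count (-0.20, adjusted p = 0.274) and was 0.20, not called, with factors from mRNAs only.

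PIR1 (YKL164C, chromosome XI, 141331 to 143191, minus strand) had 4101, 3557 and 3630.4 normalised counts in the eluates, against 12675.5, 11254 and 15781 in the unbound libraries. The eluates lay close together, well below every unbound library. Limma called PIR1 reduced, at -1.80 on the log2 scale (SE 0.186, adjusted p = 1.52e-05). PIR3 (YKL163W, chromosome XI, 144319 to 146015, plus strand), the least abundant of the 10, had 110.1, 81.8 and 80.9 in the eluates, against 191, 131 and 188 in the unbound libraries. Its groups were also apart, and limma called it reduced, at -0.89 on the log2 scale (SE 0.248, adjusted p = 0.00868). This value was 0.02 with the total count and 0.42 with factors from mRNAs only, neither of them called. The values of PIR3 rest on 74 to 224 reads per library. Per kb, PIR3 reached 2.94%, 2.52% and 2.44% of PIR1 in eluates 1, 2 and 3, against 1.65%, 1.28% and 1.31% in unbound 1, 2 and 3. This ratio was higher in every eluate (log2 change 0.91, exact two-sided permutation p = 0.1, the smallest possible).

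CIS3 (YJL158C, chromosome X, 121760 to 123020, minus strand), which encodes a PIR protein of the wall, showed the lowest fold change of the 10 genes. It had 1319, 1256 and 3088 normalised counts in the eluates, against 13957, 12171.5 and 8815 in the unbound libraries. In library 3 the eluate was the highest of its group while the unbound library was the lowest of its own, unlike in CWP1 and SED1. Limma called it reduced, at -2.73 on the log2 scale (SE 0.334, adjusted p = 4.81e-05), yet the pairs were uneven, at -3.40, -3.28 and -1.51 (SD 1.06). Relative to the median of all mRNAs in the same pair, CIS3 stood at -2.12 and -1.86 on the log2 scale in pairs 1 and 2 but at -0.07 in pair 3.

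**Figure D2:**
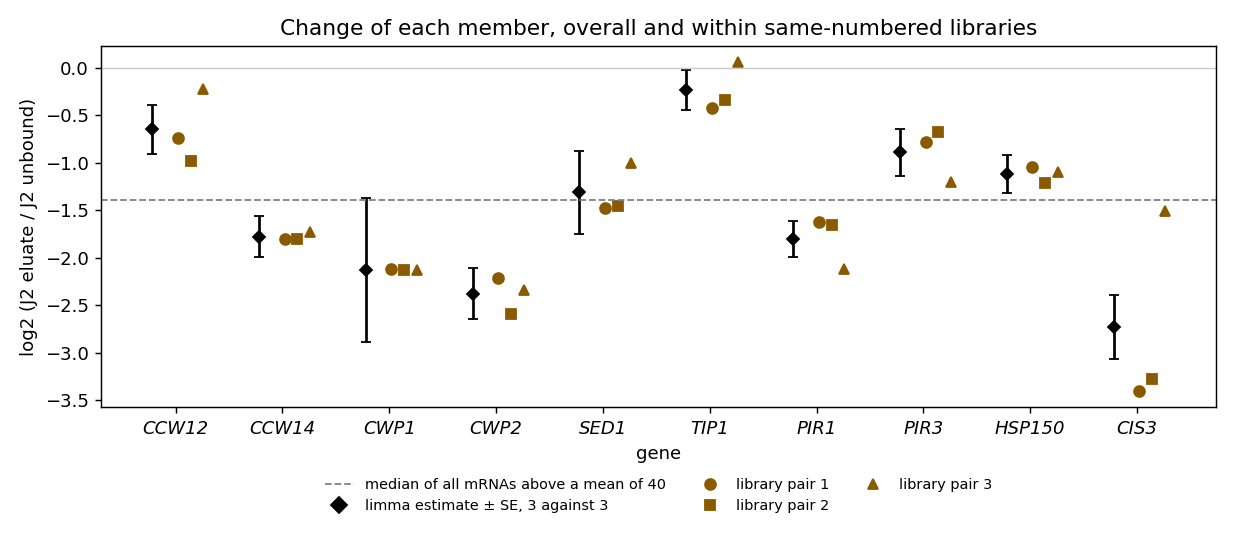
Log2 fold change of J2 eluate over J2 unbound for each gene, as the limma estimate ± SE over 3 against 3 libraries (black diamond) and in each same-numbered pair of libraries (brown symbols), with the median of all mRNAs above a mean of 40 as a dashed line at -1.39. The 3 pairs of CWP1 fall at -2.12, -2.13 and -2.13 although its SE is 0.758, whereas pair 3 of CIS3 stands apart at -1.51.

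In library 3 the level of some wall mRNAs departed from libraries 1 and 2, for CWP1 and SED1 in both fractions. The ratio of library 3 to the mean of libraries 1 and 2 was 5.49 in the eluates and 5.50 in the unbound fraction for CWP1, and 2.88 and 2.09 for SED1. CIS3 gave 2.40 in the eluates and 0.675 in the unbound fraction. The medians over 5703 nuclear mRNAs were 1.07 in the eluates and 1.09 in the unbound fraction, and SED1's unbound ratio exceeded that of 98.5% of them. In bulk RNA, a larger share of cells with an mRNA and more of it per cell cannot be told apart. Across the 10 genes, the same library number was the highest in both fractions for 7. This count was not set against all mRNAs. Same-numbered libraries deviated together over 10188 features in general (correlations of 0.228, 0.321 and 0.299).

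Shares of the protein-coding reads are free of the size factors. Together the 10 genes took 0.603% ± 0.178 (SD, n = 3) of the protein-coding reads of the eluates and 0.636% ± 0.0362 of those of the unbound libraries. The eluate shares lay on both sides of the unbound shares (exact two-sided permutation p = 0.9, where 0.1 is the smallest possible). This sum joins genes whose shares moved in opposite directions. The higher spread of the eluates came with eluate 3, at 0.809%, against 0.491% and 0.509% in eluates 1 and 2. CCW12 alone took 0.334% ± 0.0888 of the eluate reads and 0.254% ± 0.0221 of the unbound reads. Every eluate share of CCW12 (0.281% to 0.436%) was above every unbound share (0.228% to 0.268%), although its normalised count was lower in the eluates.

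TIP1 behaved alike, with 0.0338% ± 0.0108 of the eluate reads and 0.0191% ± 0.000949 of the unbound reads, and no overlap. CIS3 was the opposite case, with 0.0133% ± 0.0082 of the eluate reads and 0.0397% ± 0.00932 of the unbound reads. So was CWP2, with 0.0409% ± 0.0131 of the eluate reads and 0.103% ± 0.0206 of the unbound reads. PIR1 (mean 0.0259% against 0.0448%) and CCW14 (0.00905% against 0.0151%) also took a lower share in every eluate than in any unbound library. For CCW12, TIP1, CIS3, CWP2, PIR1 and CCW14 the two-sided exact permutation test returned p = 0.1, the smallest that 3 against 3 libraries allow. Counting error was small beside these spreads. For example, the 95% Wilson interval of the CIS3 share in eluate 3 was 0.0220% to 0.0235%, and such intervals cover counting error only.

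**Figure D3:**
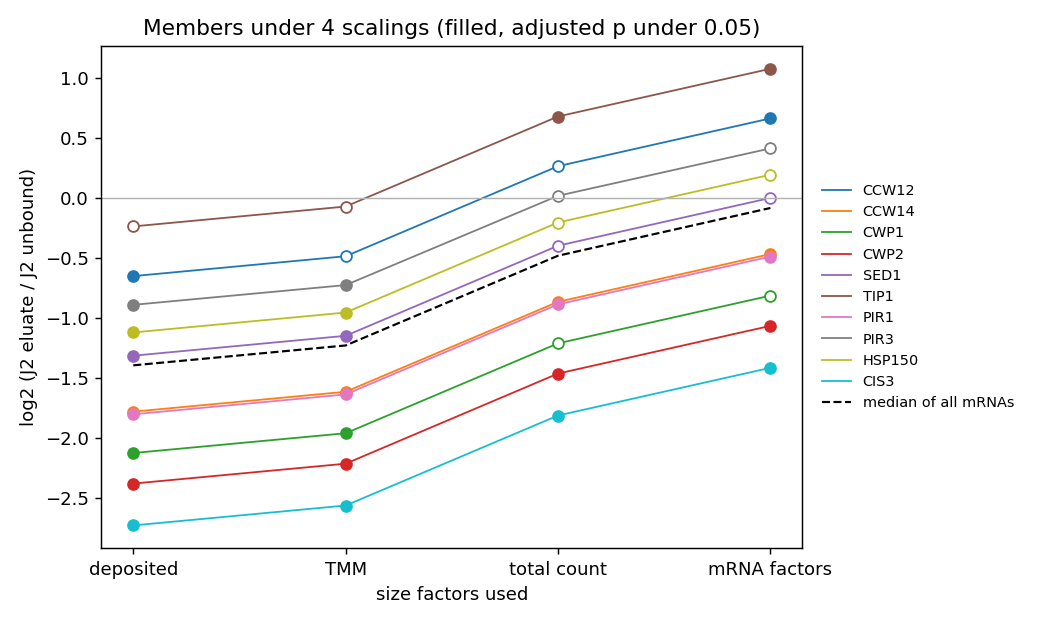
Log2 fold change of J2 eluate over J2 unbound for each gene with the deposited size factors, with TMM factors, with the total count and with factors from mRNAs only, where filled circles mark an adjusted p under 0.05 (limma) and the dashed line is the median of all mRNAs. All lines move up together, and the 10 genes keep their distance from the dashed line.

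A change of scaling moves all mRNAs together, so their distance from each other stays as it is by construction. The median of all mRNAs was -1.39 with the deposited factors, -1.23 with TMM factors, -0.48 with the total count and -0.08 with factors from mRNAs only, and the median of the 10 genes followed it at -1.55, -1.38, -0.63 and -0.23. The difference was -0.15 each time. It rested on single libraries, since it was -0.39 without eluate 3, close to 0 without eluate 1 (0.0048) or eluate 2 (0.0041) and 0.17 without unbound 3. The median of all 10188 features was -0.46, -0.30, 0.45 and 0.85 under the same 4 scalings. Relative to the mRNA median, TIP1 stood higher by 1.16 on the log2 scale, CCW12 by 0.74, PIR3 by 0.50, HSP150 by 0.27 and SED1 by 0.08. CCW14 stood at -0.39, PIR1 at -0.41, CWP1 at -0.73, CWP2 at -0.99 and CIS3 at -1.34. TIP1, CCW12, PIR3 and HSP150 were above the mRNA median in all 3 pairs, and CCW14, PIR1, CWP1, CWP2 and CIS3 were below it in all 3. CCW14, CWP2, PIR1 and CIS3 were called reduced under every alternative that was run.

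The other strand of these loci behaved differently. Each of the 10 genes has at least 1 annotated non-coding RNA opposite to it, 23 in all, and 17 of these, over 8 genes, had a mean normalised count above 40. Of the 17, 16 were enriched in the J2 eluate and 1 was reduced, with a median log2 fold change of 3.65. That mean covers all 6 libraries, so some of the 16 passed it only through the eluates. Examples are Unit224 (mean of 84.8 in the eluates and 6.42 in the unbound libraries) and YDR077W-as (160 and 11.7). The minimum thus favours enriched RNAs where the unbound level is low, so the count of 16 is no separate evidence of enrichment. Among all 3987 antisense RNAs, XUTs (Xrn1-sensitive unstable transcripts), SUTs (stable unannotated transcripts), CUTs (cryptic unstable transcripts) and Unit features above that mean, 72.3% were enriched. The 16 were also called enriched under the other 3 scalings. The exception was SUT228, which overlaps PIR1 by 29 bases at its edge and was reduced, at -1.50 on the log2 scale, but was not called with factors from mRNAs only (-0.19). Several of the 17 overlap each other on the same strand and share reads, so they are not independent.

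**Figure D4:**
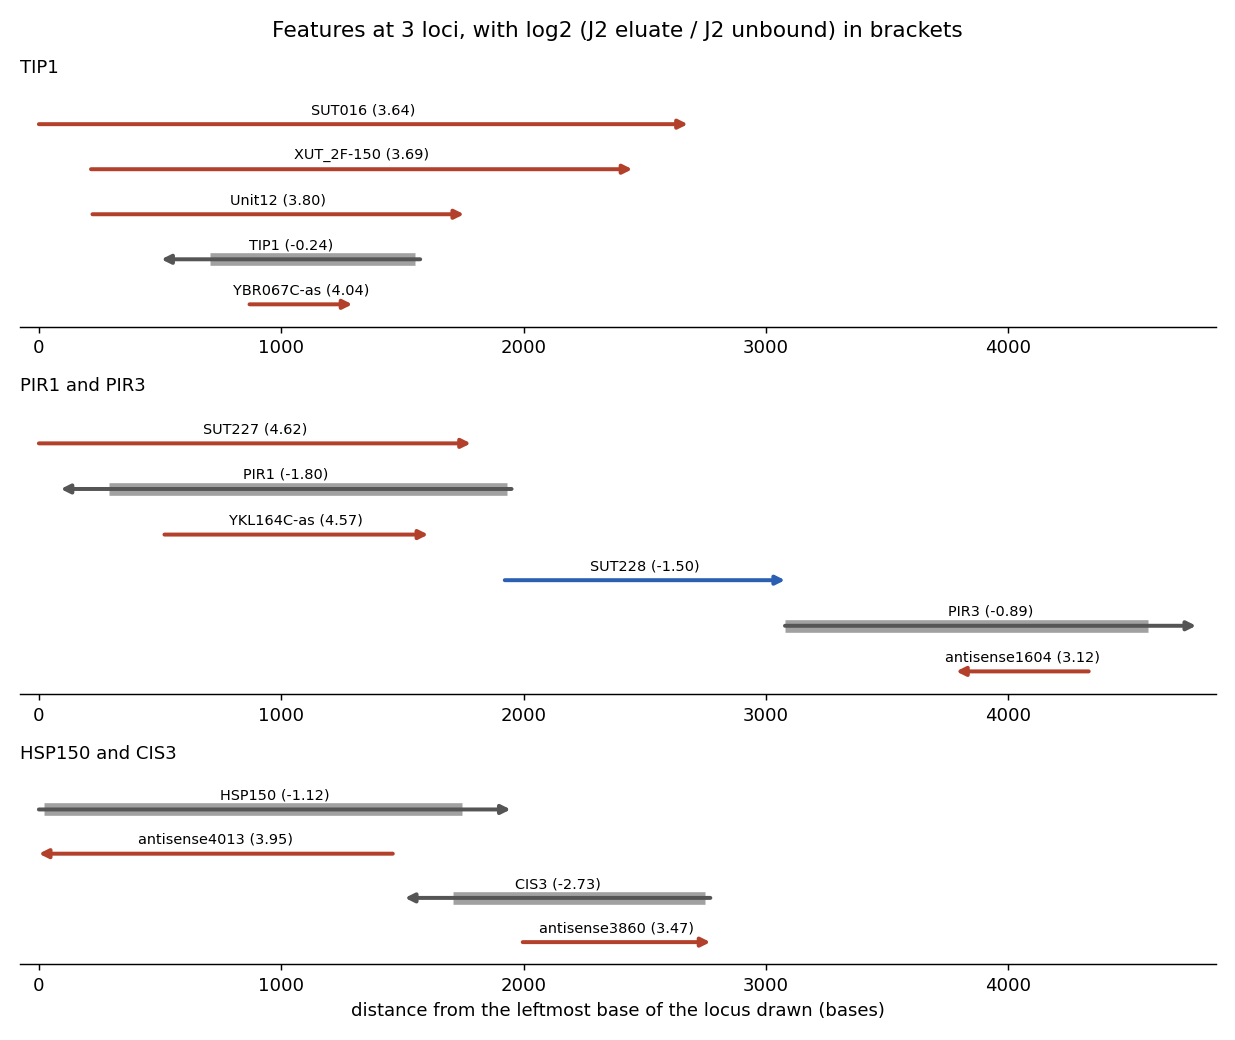
Features at 3 loci drawn to scale, with the distance from the leftmost base drawn in bases on the horizontal axis, arrows pointing in the direction of transcription (grey for wall mRNAs with the longest transcript segment as a thick bar, red for a positive and blue for a negative fold change of other RNAs), and the log2 fold change of J2 eluate over J2 unbound in brackets. Apart from SUT228 (-1.50), the RNAs opposite TIP1, PIR1, HSP150 and CIS3 have values between 3.47 and 4.62, whereas the mRNAs stand between -2.73 and -0.24, and antisense1604 and antisense3860 are below the mean of 40, while SUT660 and XUT_11R-53 are not drawn.

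TIP1 lies wholly inside antisense transcription. YBR067C-as (chromosome II, 372122 to 372546, plus strand) sits within the TIP1 feature. It had 1059.7, 1137 and 1554 normalised counts in the eluates, against 77.4, 76.2 and 68.3 in the unbound libraries. The groups were far apart, with a log2 fold change of 4.04 (limma adjusted p = 3.15e-07). SUT016, which spans the whole of TIP1, had 3288, 3899 and 4689.5 in the eluates, against 333.5, 313.5 and 295 in the unbound libraries. XUT_2F-150 and Unit12, on the same strand, gave log2 fold changes of 3.69 and 3.80.

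PIR1 was the other gene with abundant opposite RNA. YKL164C-as (chromosome XI, 141759 to 142847, plus strand), inside the PIR1 feature, had 1112, 1388 and 1101 normalised counts in the eluates, against 53.6, 60.2 and 37.4 in the unbound libraries. Its log2 fold change was 4.57 (limma adjusted p = 3.15e-07), and SUT227, which covers it, gave 4.62. The mRNA of PIR1 was reduced in the same libraries, whereas that of TIP1 was not called.

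Opposite CWP1, XUT_11R-112 (611 bases, all within CWP1) had 97.3, 97.5 and 324 normalised counts in the eluates, against 26.8, 24.8 and 12.9 in the unbound libraries. Library 3 was the highest eluate for this RNA, as it was for CWP1 itself, but it was the lowest of the unbound libraries. It was enriched, at 2.77 on the log2 scale (adjusted p = 0.000577 by limma). Opposite SED1, YDR077W-as had 103, 137 and 238 in the eluates, against 8.93, 10.6 and 15.5 in the unbound libraries, and Unit58 and antisense4590 gave log2 fold changes of 3.65 and 3.66. Opposite HSP150, antisense4013 had 145, 191 and 302 in the eluates, against 5.96, 28.3 and 10.3 in the unbound libraries.

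The remaining opposite RNAs were scarce. Unit261 and antisense2955, opposite CCW12, gave log2 fold changes of 2.04 and 2.28, antisense3272, opposite CCW14, gave 1.61, antisense1628, opposite CWP1, gave 2.42, and Unit224, opposite CWP2, gave 3.68. Opposite CIS3, antisense3860 rested on 97, 83 and 123 reads in the eluates and on 3, 5 and 2 reads in the unbound libraries. Opposite PIR3, antisense1604 rested on 87, 59 and 26 reads in the eluates and on 3, 2 and 1 reads in the unbound libraries, which is at or below the floor of 3 counts in each. Also below a mean of 40 were another 4 opposite RNAs, which did not all go one way. XUT_11R-53, which reaches into PIR3 by 390 bases, had 12.3, 6.66 and 3.41 normalised counts in the eluates, against 34.2, 33.7 and 19.3 in the unbound libraries. It was thus lower in every eluate, with a log2 fold change of -1.93 (limma adjusted p = 0.00524). SUT660, inside PIR3, had 22.6, 34.5 and 5.96 in the eluates, against 10.4, 0 and 0 in the unbound libraries, and its groups overlapped. SUT664 and XUT_11R-109, opposite CWP2, gave 1.84 and 0.95 on the log2 scale.

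For each gene, 1 opposite RNA was then set against the mRNA within each library, as its normalised count per kb in percent of that of the mRNA, which does not depend on the size factors. The RNA with the largest share of its own length inside the gene was used, and the more abundant one where shares were equal, a rule chosen after the values were seen. Only PIR3 had such a tie, between antisense1604 and SUT660, and antisense1604 was used. For TIP1 the ratio was 61.3%, 72.2% and 62.6% in eluates 1, 2 and 3, against 3.34%, 3.82% and 2.86% in unbound 1, 2 and 3. For PIR1 it was 46.3%, 66.7% and 51.8% in the eluates, against 0.723%, 0.915% and 0.405% in the unbound libraries. In the eluates the opposite RNA of both genes thus stood at 46.3% to 72.2% of the mRNA, against at most 3.82% in the unbound libraries.

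CWP1 ranged widely, with 83.7%, 89.2% and 52.2% in the eluates, against 5.29%, 5.16% and 0.475% in the unbound libraries. Unbound 3 was the lowest, in the library number where the mRNA was the highest. CCW14 gave 7.92%, 8.14% and 8.41% in the eluates, against 1.02%, 0.805% and 0.539%. SED1 gave 5.22%, 8.23% and 4.53% in the eluates, against 0.162%, 0.231% and 0.147%. In CCW12, the most abundant of the mRNAs, the opposite RNA stayed scarce in both fractions, with 0.226%, 0.526% and 0.356% in the eluates, against 0.0276%, 0.112% and 0.0451% in the unbound libraries. Next came 2 genes with similarly low ratios. HSP150 gave 1.37%, 2.27% and 2.77% in the eluates, against 0.0275%, 0.146% and 0.044%. CWP2 gave 2.46%, 3.18% and 3.45% in the eluates, against 0.0224%, 0.107% and 0.0215%, where the unbound values rest on 2, 7 and 3 reads. In PIR3 and CIS3, whose opposite RNAs had the fewest unbound reads, the eluate ratios were 120.3%, 135% and 84.8% for PIR3 and 5.88%, 6.51% and 5.52% for CIS3.

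**Figure D5:**
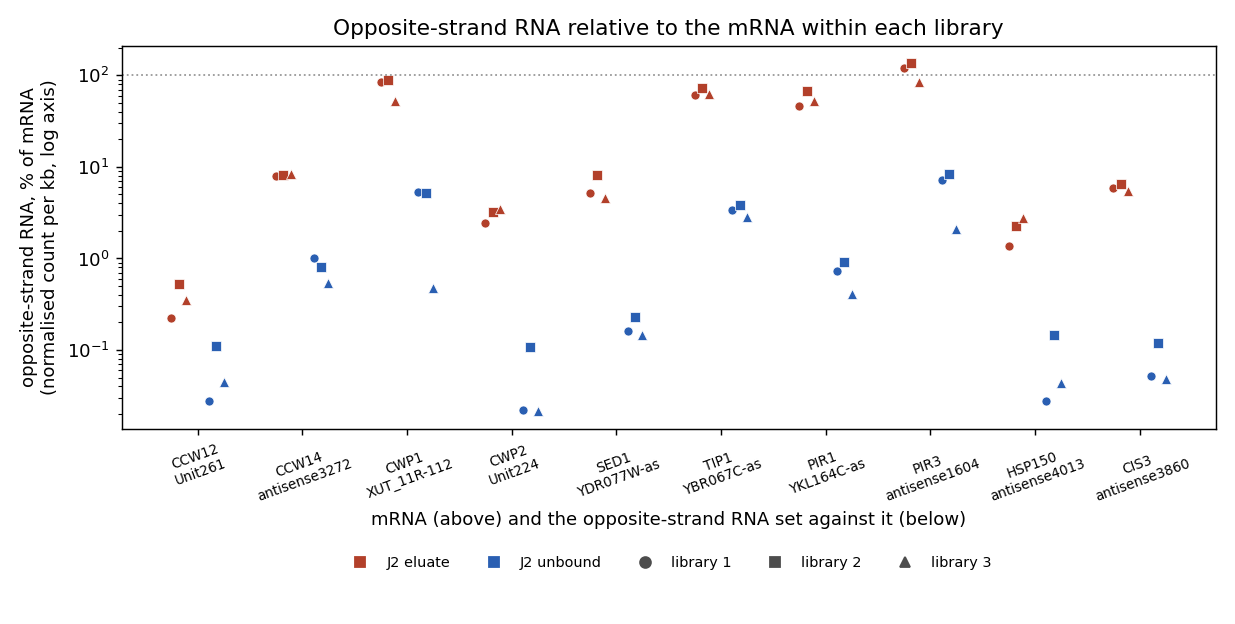
Normalised count per kb of 1 opposite-strand RNA in percent of that of the mRNA, on a log axis, for each gene and library, with J2 eluate (red) left of J2 unbound (blue), the library number as the symbol and a dotted line at 100%. In every gene the 3 eluates lie above the 3 unbound libraries, with the unbound points of PIR3 resting on 1 to 3 reads.

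In all 10 genes the 3 eluate ratios of the RNA used exceeded the 3 unbound ratios. The ratio combines the changes of the mRNA and of its opposite RNA, both given above. Of all mRNAs above a mean of 40, 74.4% were reduced. Of the antisense RNAs, XUTs, SUTs, CUTs and Unit features, 72.3% were enriched. The share of all such pairs with a higher ratio in the eluates was not computed, so 10 of 10 cannot be called particular to these genes. The log2 change of the ratio was lowest in CCW12 (2.69) and CCW14 (3.40), and it was 4.28 in TIP1, 4.89 in CWP1, 4.92 in SED1, 5.07 in HSP150 and 6.37 in PIR1. The two-sided exact permutation test returned p = 0.1 for each gene, the smallest that 3 against 3 libraries allow, and 0.1 after Benjamini-Hochberg adjustment over the 10 pairs. Across the 10 genes, the fold change of the mRNA showed little relation to the unbound ratio of its opposite RNA (Spearman's rho 0.22, and 0.08 without TIP1). It also showed little relation to the unbound level per kb (-0.02) or to the length of the feature (0.12), and rho with the GC content was 0.37. These are descriptions over 10 genes that share their libraries.

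The strands were kept apart in the counts, although how the counting treated strand is not given in the sources used here. Unit261, which lies opposite the abundant CCW12 mRNA, held 8, 25 and 13 reads in unbound 1, 2 and 3, where CCW12 held 54079, 41729 and 53729. Reads of the wrong strand thus did not exceed 0.112% of the mRNA per kb in that fraction, at this locus. The unbound ratios of HSP150 (0.0275% to 0.146%), CWP2 (0.0215% to 0.107%) and CIS3 (0.0476% to 0.118%) were of the same size. The unbound opposite RNA of these genes therefore cannot be told from reads of the wrong strand, which limits their log2 changes of the ratio. In the eluates the ratio for CCW12 reached 0.526%.

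The tail-to-tail pair of HSP150 and CIS3 was compared within each library. Per kb, CIS3 reached 14.5%, 17.3% and 32.8% of HSP150 in eluates 1, 2 and 3, against 74.6%, 72.4% and 43.6% in unbound 1, 2 and 3. The ratio was lower in every eluate than in every unbound library, with a log2 change of -1.61 (exact two-sided permutation p = 0.1, the smallest possible, 0.15 after Benjamini-Hochberg adjustment over 3 ratios of neighbouring genes). Libraries 1 and 2 were alike and library 3 stood between the groups. The 2 mRNAs are those that share the complementary stretch printed above.

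Other protein-coding genes run opposite some of the 10. AHP1, a thiol peroxidase gene whose feature overlaps that of CCW12 by 237 bases of the extensions only, had 3281, 2638 and 4965 normalised counts in the eluates, against 45590.2, 41678 and 65396.5 in the unbound libraries. With a log2 fold change of -3.83 (limma adjusted p = 1.45e-06) it was reduced far more than CCW12. ART10, opposite the extension of CCW14, was reduced by a log2 fold change of -2.28 (adjusted p = 5.12e-06, limma). SHU2, whose transcript overlaps that of SED1 by 77 bases, had a log2 fold change of -0.05 and was not called, but it was enriched with the total count (0.87) and with factors from mRNAs only (1.26). On the same strand, XUT_4F-293 shares 67 bases with the end of SED1 (log2 fold change 3.35). Its mean normalised count was 46.7, against 11886 for SED1. SUT228 shares 1 base with the start of PIR3 and had the higher mean, 323 against 130 for PIR3. Whether RNA of SUT228 runs on into PIR3 was not tested.

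Other genes of the wall were taken from 6 lists, 126 genes in all, of which 125 had a mean above 40. With the deposited factors 102 of these were reduced, 4 were enriched and 19 were not called, against 74.4% of all mRNAs reduced and 8.0% enriched. With factors from mRNAs only 45 were reduced and 35 were enriched, against 37.6% of all mRNAs reduced and 32.8% enriched. Among 26 other GPI-linked proteins of the wall and surface, 21 were reduced and 2 were enriched (median -1.12, and 0.20 with factors from mRNAs only). ECM33, needed for the order of the wall, had 114626, 94859 and 86391 normalised counts in the eluates, against 38109.7, 34332 and 40885 in the unbound libraries. Its log2 fold change was 1.38 (limma adjusted p = 0.00056), with no overlap between the groups. NCW2, another GPI-linked wall protein gene, was also enriched (0.78). DFG5 and DCW1, whose proteins are thought to transfer GPI proteins to wall glucan, were reduced by log2 fold changes of -3.18 and -2.86. The calls of ECM33, NCW2, DFG5 and DCW1 were the same under all 4 scalings.

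Of 16 glucan-modifying and soluble wall proteins 12 were reduced and none was enriched (median -1.03, and 0.29 with factors from mRNAs only). With the library number as a block, NCA3 was called enriched (0.45). SIM1 and UTH1, of the SUN family, were reduced most (-2.45 and -2.26), and SCW4 (-0.73) and DSE2 (-0.56) least, though SCW4 and DSE2 were enriched with factors from mRNAs only. Of 20 genes for glucan and chitin synthesis 16 were reduced and none was enriched (median -1.60), among them SMI1 (-2.85), a regulator of glucan synthesis, KRE1 (-2.51), a factor of glucan assembly, SKN1 (-1.12) and KNH1 (-0.64). KNH1 was enriched with factors from mRNAs only, and SKN1 was not called with those factors or the total count.

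The mannosyltransferases, which build the sugar chains of these proteins, had the lowest median of the 6 lists. Of 28 genes 26 were reduced and 2 were enriched (median -1.86, and -0.55 with factors from mRNAs only). VAN1 and MNN9, both part of mannan polymerase, were reduced by log2 fold changes of -3.36 and -3.14, while YUR1 (1.93) and KTR2 (1.30) of the KRE2 family were enriched under all 4 scalings. YUR1 had 2618, 3173 and 3061 normalised counts in the eluates, against 701, 678 and 955 in the unbound libraries. Of 19 genes for GPI anchor synthesis 14 were reduced and none was enriched (median -1.24, and 0.08 with factors from mRNAs only), with GPI11 (-3.80) and GPI15 (-2.78) lowest and GAB1 (-0.86) and GPI1 (-0.58) highest among those called. GAB1 (0.45) and GPI1 (0.74) were enriched with factors from mRNAs only and not called with the total count, and LAS21 (-0.43) was called reduced with the library number as a block. Of 16 genes for wall integrity signalling 13 were reduced and none was enriched (median -1.43). SWI6 (-3.18), a transcription cofactor, and MKK1 (-2.90), a MAP kinase kinase, were lowest, and WSC3 (-1.11), a wall sensor, and BCK1 (-0.50), a MAP kinase kinase kinase, were highest among those called, with BCK1 enriched and WSC3 not called with the total count and with factors from mRNAs only.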

How the data were processed

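RIP-seq libraries of 3 J2 eluates and 3 J2 unbound fractions were made by the authors with the TruSeq RNA Sample Prep Kit v2. The authors aligned reads to sacCer3 with STAR and counted them with featureCounts (Subread 1.5.0-p1) over genes extended by untranslated regions and non-coding transcripts. The values deposited by the authors are a normalised count signal, that is counts divided by 1 DESeq2 (1.24.0, R 3.6.1) size factor per library, from 0.565 (unbound 2) to 2.03 (eluate 1). Deposited columns with the authors' own fold changes and p-values of eluate over unbound were not used. The 47860 lines were collapsed to 15753 features, and low values gave whole reads for 100% of the entries of each library (within 0.1). A read can count in each same-strand feature it overlaps. Of 5809 genes compared, 99.9% had coordinates equal to those of the R64 reference, all 10 wall genes among them.

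The plan assumed normalised counts, and the test was limma 3.58.1 (R 4.3.3) with a trend on log2(normalised count + 1), 3 against 3 libraries, read above a mean of 40, the minimum of the study's methods. Alternatives were other pseudocounts, filters and scalings (TMM, total count, median of ratios over mRNAs), DESeq2 1.42.0 and edgeR 4.0.16 on the recovered reads, the library number as a block, and each library left out. The fits were tested on simulated data before use. The library numbers of the titles were taken to pair the fractions. Deviations from the group means over 10188 features correlated at 0.228, 0.321 and 0.299 between same-numbered libraries, and at -0.368 to 0.125 between others. Such deviations cancel out within a group, so these correlations are not independent of each other.

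The wall genes and lists were chosen with earlier results of these data known. Named were all 10 genes, every feature above the mean of 40 that overlaps one, and of each list the 2 genes with the highest and the 2 with the lowest fold change among those called. NCA3, LAS21 and the opposite RNAs below a mean of 40 were named after their values were seen. Ratios within a library used exact two-sided permutation tests.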

Additional observations from a re-analysis of the deposited data

How the results depend on the processing

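The scaling decided the direction of several calls. With the total count 4 genes were reduced and 1 was enriched, against 48.8% and 21.5% of all mRNAs. With factors from mRNAs only 4 were reduced and 2 were enriched, against 37.6% and 32.8% of all mRNAs. The median of the 10 genes was -1.38 with TMM factors, -0.63 with the total count and -0.23 with factors from mRNAs only. The sign turned with the total count for CCW12 (0.27), TIP1 (0.68) and PIR3 (0.02), and with factors from mRNAs only for CCW12 (0.67), SED1 (0.0022), TIP1 (1.08), PIR3 (0.42) and HSP150 (0.20). Leaving out 1 library at a time gave 6 to 10 reduced genes, none enriched, and medians from -1.80 to -1.18. Of all mRNAs, 70.2% (without unbound 1) to 75.2% (without eluate 3) were reduced in these fits. For the 10 genes the fewest calls were made without eluate 2 or unbound 3 (6 each, with CCW12, CWP1 and SED1 not called), and all 10 were called without eluate 3. DESeq2 called 8 genes reduced and edgeR 9, against 74.1% and 73.9% of all mRNAs. With the replicate block, 9 genes were reduced and 0 enriched, against 76.5% and 9.07% of all mRNAs. The paired fit thus changed no call of the 10 genes, and of the other wall genes it added NCA3 (enriched) and LAS21 (reduced). The opposite-to-mRNA ratio was higher in all eluates in 10 of 10 genes with a pseudocount of 0.5 or 10, while pairing or leaving out a library cannot change that count. The share among all such pairs was not computed. Scalings of the other wall lists and of the opposite RNAs were added after the data were seen. They gave 97, 63 and 45 reduced and 5, 20 and 35 enriched list genes with TMM factors, the total count and mRNA factors, against 102 and 4 with the deposited factors. Under the same 3 scalings 71.0%, 48.8% and 37.6% of all mRNAs were reduced, and 10.0%, 21.5% and 32.8% were enriched. Depth limits the opposite RNAs most, with 1 to 7 unbound reads per library for antisense1604, antisense3860 and Unit224.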
